A study of Rattus norvegicus with 30 samples.

Results

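Marker genes of the choroid plexus epithelium, 10 in number, were followed rat by rat in brain RNA-seq data. The genes were chosen by symbol and are Ttr, Enpp2, F5, Folr1, Kl, Aqp1, Slc4a5, Kcnj13, Clic6 and Otx2. All 10 were found among the 17134 genes of the table, and all passed the filter on low values in every comparison of groups with all rats. The samples were from 30 male rats on a normal diet, with 10 rats per group. WT rats are Sprague Dawley rats that express rat amylin, HIP rats are Sprague Dawley rats that express human amylin in pancreatic β-cells beside rat amylin, and AKO rats lack rat amylin. The study's methods give an age of 15 to 16 months for HIP and WT rats, and the age of the sequenced AKO rats is not given in the sources used here. Its labels name the tissue frontal cortex, its methods cerebral cortex and its results hippocampus. Values are the normalized counts of the authors, which correct the reads on a gene for sequencing depth but not for gene length, so that levels are compared between rats and not between genes. Estimated reads on genes were 12.9 to 23.6 M per rat.

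The choroid plexus is a vascular tuft inside each brain ventricle. Its epithelial cells secrete most of the cerebrospinal fluid by moving ions and water from blood to ventricle, and they release transport proteins and growth factors into it. The epithelium derives from the dorsal midline of the neural tube and borders the ciliated ependyma that lines the ventricles. Frontal cortex as such holds no choroid plexus, whereas the hippocampus lies next to the plexus of the lateral ventricle. In bulk tissue, more cells of a type and more RNA per cell cannot be told apart.

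The highest values of these genes lay in a few libraries. Enpp2, Aqp1 and Kcnj13 had more than 3 estimated reads in all 30 rats, F5 in 29 and Slc4a5 in 27, against 21 for Kl, 17 for Ttr, 13 for Clic6, 9 for Folr1 and 7 for Otx2. HIP rat 10RT46 had the highest value of the 30 rats for 9 of the 10 genes, against 5.71% of all 17103 genes with a mean of at least 1. AKO rat 7AKO19 had the highest value of the other 29 rats for 6 of the 10 genes, against 2.36% of all genes. Within the AKO group 7AKO19 was highest for 8 of the 10 genes, against 5.1% of all genes, and within the HIP group 10RT46 was highest for all 10, against 22.1%. Both rats were above all of the other 28 for Ttr, Folr1, Kl, Slc4a5, F5 and Enpp2, which is 6 of the 10 genes against 0.848% of all genes. The mean of the 10 genes on the log2(normalized count + 1) scale was 9.33 in 10RT46 and 7.40 in 7AKO19. WT rat 10RT43 had a mean of 5.30, and the other 27 rats had means of 3.01 to 5.15.

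**Figure D1:**
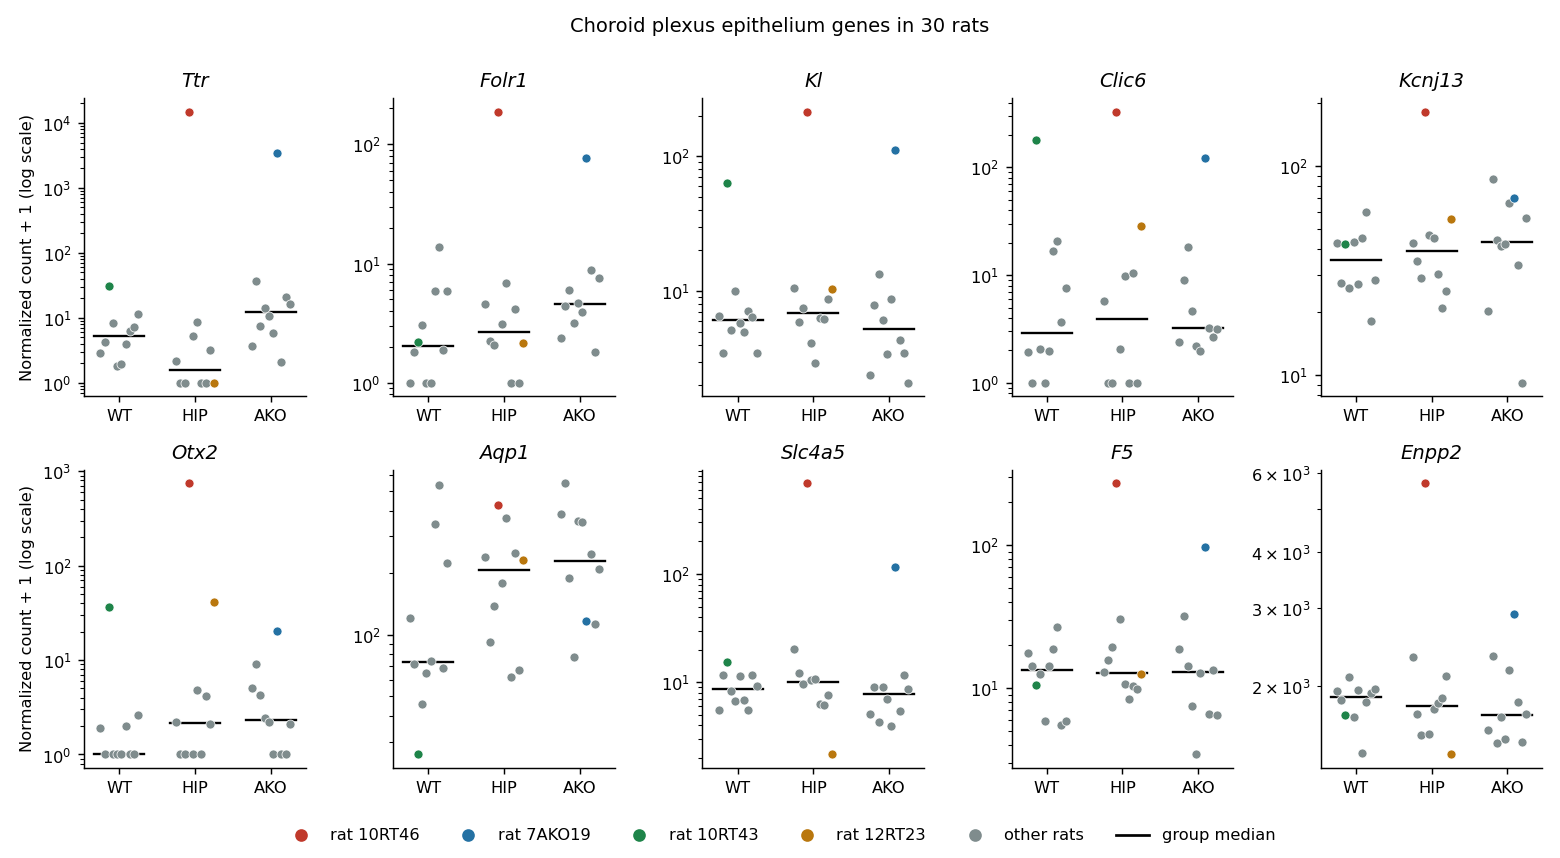
Normalized count + 1 on a log axis for each of the 10 genes in WT, HIP and AKO rats. Each point is a rat, black lines are group medians, and coloured points are HIP rat 10RT46, AKO rat 7AKO19, WT rat 10RT43 and HIP rat 12RT23. For Ttr, 10RT46 at 14881 and 7AKO19 at 3445 lie far above the remaining rats, of which the highest has 35.4.

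Ttr (ENSRNOG00000016275) encodes transthyretin, the carrier of thyroxine and of retinol-binding protein that the epithelium secretes into the fluid. In WT rats the normalized count of Ttr was 0.817 at the lowest, 4.31 at the median and 29.9 at the highest, in 10RT43. In HIP rats it was 0 at the lowest, 0.600 at the median and 14881 in 10RT46, and the next HIP rat had 7.75. In AKO rats it was 1.12 at the lowest, 11.4 at the median and 3445 in 7AKO19, and the next AKO rat, 4KAH35, had 35.4. The 3 groups overlapped, and 10RT46 and 7AKO19 stood alone. Ttr in 10RT46 was 420 times and in 7AKO19 97.3 times the highest value of the other 28 rats. It made up 0.0949% of all normalized counts in 10RT46 and 0.0207% in 7AKO19. Ttr was close to the limit of detection in many of the other 28 rats, but it reached 31 estimated reads in 4KAH35 and 24 in 7AKO30. It was listed at 0 in 5 HIP rats, and 6 WT, 2 other HIP and 7 other AKO rats had more than 3 estimated reads.

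Enpp2 (ENSRNOG00000004089) encodes autotaxin, a secreted enzyme that makes lysophosphatidic acid and that oligodendrocytes also express. Its normalized count was 1414 at the lowest, 1894 at the median and 2097 at the highest in WT rats. It was 1404, 1801 and 5697 in HIP rats, with the highest value in 10RT46 and the next at 2328. It was 1486, 1718 and 2902 in AKO rats, with the highest value in 7AKO19 and the next, in 4KAH35, at 2332. Unlike Ttr, Enpp2 was well above the limit of detection in every rat, and 10RT46 was 2.44 times and 7AKO19 1.24 times the highest of the other 28 rats.

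F5 (ENSRNOG00000057855) encodes coagulation factor V. Its normalized count was 4.50 at the lowest, 12.3 at the median and 25.8 at the highest in WT rats. HIP rats had 7.37, 11.8 and 269, and the second highest HIP rat had 29.3. AKO rats had 2.43, 12.0 and 95.8, and the second highest AKO rat had 30.8. The medians of the 3 groups lay close together, and the highest HIP and AKO values were again those of 10RT46 and 7AKO19.

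Folr1 (ENSRNOG00000019902) encodes folate receptor alpha, which carries folate across the epithelium. It had a normalized count of 0, 1.05 and 12.9 (lowest, median and highest) in WT rats, 0, 1.66 and 186 in HIP rats and 0.817, 3.53 and 75.6 in AKO rats. The highest HIP rat was 10RT46, at 14.5 times the highest of the other 28 rats, and the highest AKO rat was 7AKO19, at 5.87 times. In the other 28 rats Folr1 was near the limit of detection, with a median of 2.09. WT rat 10RT43 had 1.196, which is inside the range of the remaining rats.

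Kl (ENSRNOG00000001092) encodes klotho, the co-receptor of fibroblast growth factor 23, whose shed form is found in cerebrospinal fluid. It had a normalized count of 2.46, 5.09 and 62.2 in WT rats, 1.94, 5.86 and 212 in HIP rats and 1.09, 4.23 and 111 in AKO rats, again as lowest, median and highest. For this gene a rat stood apart in each group, 10RT43 in WT, 10RT46 in HIP and 7AKO19 in AKO. The other 27 rats had at most 12.4.

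Aqp1 (ENSRNOG00000011648) encodes the water channel of the apical membrane and is also expressed outside the epithelium, for instance in red blood cells. Its normalized count was 25.1, 72.3 and 535 in WT rats, 61.1, 204 and 428 in HIP rats and 77.0, 227 and 542 in AKO rats. Unlike the genes above, Aqp1 varied widely within every group. The groups overlapped, although 6 of 10 WT rats were below the lowest AKO rat. Rat 10RT46 was at rank 3 among the 30 rats for Aqp1, behind 4KAH35 and WT rat 10RT51, and 7AKO19 with 115 lay below the median of the other 28 rats, 183. The lowest value was that of 10RT43.

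Slc4a5 (ENSRNOG00000010378) encodes the sodium bicarbonate cotransporter of the apical membrane. It had a normalized count of 4.55, 7.74 and 14.4 in WT rats, 1.16, 9.02 and 685 in HIP rats and 2.92, 6.85 and 116 in AKO rats. The value of 10RT46 was 35.6 times and that of 7AKO19 6.03 times the highest of the other 28 rats, which had a median of 7.45. After Ttr, this was the largest separation of 10RT46 among the 10 genes.

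Kcnj13 (ENSRNOG00000016057) encodes the inward rectifier potassium channel Kir7.1. Its normalized count was 17.1, 34.5 and 59.1 in WT rats, 19.8, 38.1 and 181 in HIP rats and 8.17, 42.2 and 85.6 in AKO rats. Rat 10RT46 stood apart from the other HIP rats, of which the highest was 12RT23 with 54.6. Rat 7AKO19 had 69.3 and was below 4KAH35, the highest AKO rat. In RefSeq, Kcnj13 lies within the span of Gigyf2, and reads of the overlapping genes may not be told apart. Gigyf2 was not higher in 10RT46, at 562 against a median of 815 in the other 28 rats.

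Clic6 (ENSRNOG00000026870) encodes a chloride intracellular channel protein. It had a normalized count of 0, 1.87 and 177 in WT rats, 0, 2.92 and 328 in HIP rats and 0.975, 2.21 and 121 in AKO rats. Its highest values were spread over all 3 groups, in 10RT46, 10RT43 and 7AKO19 in this order. HIP rat 12RT23 followed with 27.9, and the median of the 28 rats other than 10RT46 and 7AKO19 was 1.91.

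Otx2 (ENSRNOG00000065063) encodes a homeobox transcription factor that the epithelium needs to form and that the pineal gland also expresses. It had a normalized count of 0, 0 and 35.9 in WT rats, 0, 1.15 and 743 in HIP rats and 0, 1.33 and 19.2 in AKO rats. Rat 10RT46 was 18.3 times the highest of the other 28 rats. Behind it came 12RT23 with 40.6, 10RT43 with 35.9 and only then 7AKO19. Otx2 was listed at 0 in 13 of the 30 rats.

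**Figure D2:**
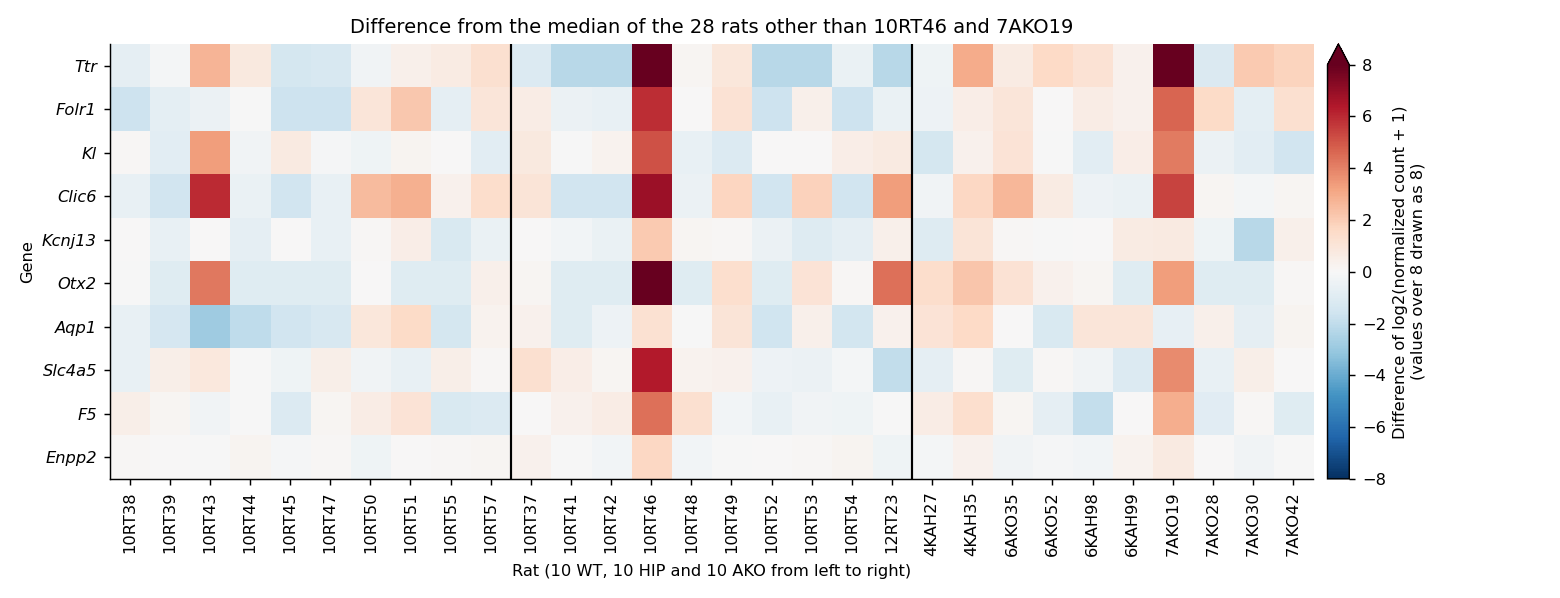
Difference of log2(normalized count + 1) from the median of the 28 rats other than 10RT46 and 7AKO19, for the 10 genes (rows) in the 30 rats (columns, WT, HIP and AKO from left to right). Red is higher and blue lower, and values over 8 are drawn as 8. Rats 10RT46 and 7AKO19 form columns of red for most genes, whereas in 10RT43 Kl, Clic6, Otx2 and Ttr are high and Aqp1 is low.

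The levels of the 10 genes differed between the 3 rats. The ratio of the level in 10RT46 to that in 7AKO19, which includes the level that a gene has in the other rats, was between 1.92 and 3.72 for Kl, Enpp2, Folr1, Kcnj13, Clic6, F5 and Aqp1. It was 4.32 for Ttr and 5.91 for Slc4a5. Otx2 was the exception, with a ratio of 38.8. In 10RT43, Kl was 5.03 times and Clic6 6.35 times the highest of the remaining 27 rats, whereas Folr1, F5, Slc4a5, Kcnj13 and Enpp2 were inside the range of these rats. Ttr and Otx2 were inside this range too, at 0.845 and 0.883 times its highest value. Rat 10RT43 was the highest of the 28 rats other than 10RT46 and 7AKO19 for 2 of the 10 genes, against 19.5% of all genes, and the lowest for 1, against 22.1%.

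Marker genes of other tissues moved with these rats. In 10RT46, 10 of 11 pineal gland genes were above the other 28 rats, among them Tph1 at 19081 and Crx, a factor related to Otx2, at 381, while Crx was listed at 0 in every other rat. The summed pineal genes were 27452 in 10RT46, 126.6 to 260.7 in WT rats, 130.8 to 175.9 in the other 9 HIP rats and 132.04 to 320.9 in AKO rats. In 7AKO19 none of the 11 was above the other 28 rats. Of 12 ependyma and motile cilia genes, 9 in 10RT46 and 8 in 7AKO19 were above the other 28 rats, and these included Ccdc153, Ak7 and Tmem212 in both. The summed ependyma genes were 862 in 10RT46 and 762 in 7AKO19, against 310 to 785 in WT rats, 282 to 487 in the other HIP rats and 232 to 801 in the other AKO rats. Of 12 oligodendrocyte genes, 10 in 10RT46 and 0 in 7AKO19 were above the other 28 rats, with sums of 192340 and 105801 and a range of 51934 to 155249 in the 27 rats without 10RT43. For comparison, 10RT46 was the highest of all 30 rats in 5.71% and 7AKO19 the highest of the other 29 in 2.36% of all genes. The 5.71% also asks for a value above 7AKO19, which the counts of 10RT46 do not. The counts in 10RT46 were 0 of 10 for cerebellum, 2 of 8 for thalamus and habenula, 3 of 7 for hippocampus, 1 of 10 for neocortex, 0 of 10 for striatum, 1 of 9 for leptomeninges, 0 of 8 for endothelium and 0 of 5 for blood. In 7AKO19 the count was 2 of 7 for hippocampus and 0 for each of the other lists just named. The summed hippocampus genes were 6655 in 10RT46 and 8713 in 7AKO19, against 3421 to 7068 in the 27 rats without 10RT43. The part of these tissues in the levels of the 10 genes was not tested.

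Rat 10RT43 differed from the others in its regional markers. Its mean over 10 cerebellum genes was 11.9 on the log2 scale and its mean over 10 neocortex genes was 7.44, against 3.11 to 8.86 and 10.1 to 11.05 in the 27 other rats without 10RT46 and 7AKO19. The highest of these cerebellum means, 8.86, was that of 12RT23, and the next was 4.48. Clic6 and Otx2 were thus high in both rats with raised cerebellum genes. Ttr was 29.9 in 10RT43 and 0 in 12RT23, and Folr1 was 1.196 and 1.16. Among the 27 rats, 4KAH35 had the highest value for 5 of the 10 genes, Ttr, Kcnj13, Aqp1, F5 and Enpp2. Rat 4KAH35 also had the highest mean of the 27 rats over leptomeninges genes, at 9.59, and over ependyma genes, at 5.12.

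**Figure D3:**
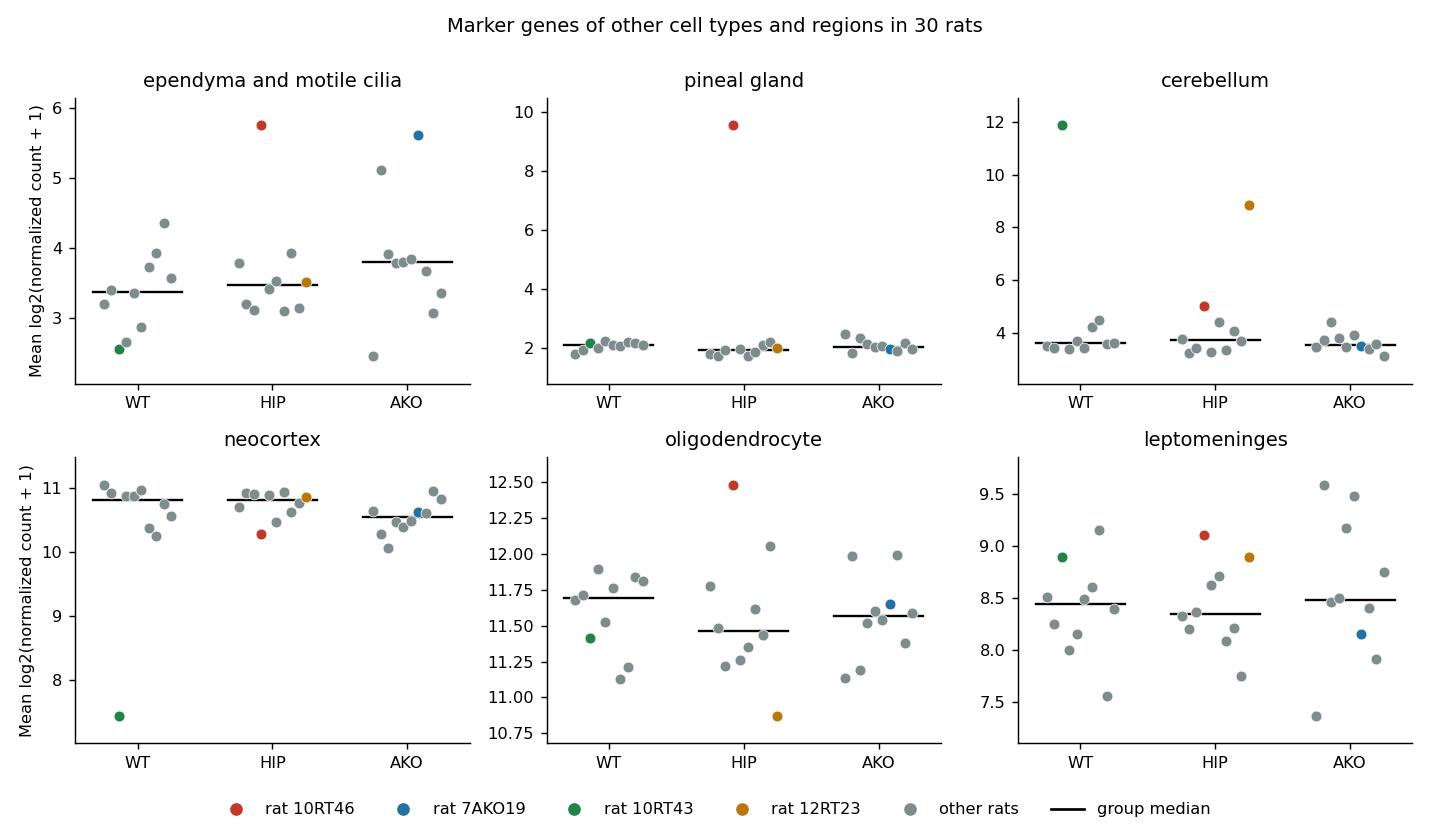
Mean log2(normalized count + 1) of 6 lists of marker genes in WT, HIP and AKO rats. Each point is a rat, black lines are group medians, and colours mark the same 4 rats as in the plot of the 10 genes. Rats 10RT46 and 7AKO19 are highest for ependyma genes at 5.76 and 5.62, 10RT46 alone is high for pineal genes at 9.55, and 10RT43 is high for cerebellum genes at 11.9 and low for neocortex genes at 7.44.

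In a wider list of choroid plexus epithelium genes 10RT46 stood out. The mean of 48 such genes was 8.09 on the log2 scale in 10RT46, 7.40 in 7AKO19 and 6.94 in 10RT43, and the latter were within the range of the other 27 rats, 6.47 to 7.43. Of the 48 genes, 18 were above the other 28 rats in 10RT46, 6 in 7AKO19 and 6 in both, the last against 0.848% of all genes. The 6 were Abca4, a retinoid transporter, Sostdc1, a secreted inhibitor of BMP and Wnt signals, Krt18 and Tmem72, an epithelial keratin and a membrane protein, and Lmx1a and Msx1, transcription factors of the dorsal midline. Sostdc1 was 281 in 10RT46 and 83.7 in 7AKO19 against a highest value of 10.6 in the other 28 rats. Tmem72 was 75.6 and 26.2 against 20.7, and Msx1 was 238 and 127 against 81.7. By role, the genes above the other 28 rats in 10RT46 were 4 of 9 for ion and water transport, 2 of 10 for carriers of solutes, metals and vitamins, 4 of 12 for secreted proteins, 1 of 6 for receptors, 5 of 7 for junctions and keratins and 2 of 4 for transcription factors. Kcne2, a subunit of potassium channels, was 605 in 10RT46 and 81.7 in 7AKO19, and the latter was within the range of the other rats, 18.6 to 118. Many genes of this list are expressed in cortex too, such as Cst3 and Atp1b1, and their sum, 68346 to 85203 in the 27 rats, was 80769 in 10RT46 and 74789 in 7AKO19.

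Few genes shared the pattern in full. Both 10RT46 and 7AKO19 had more than 2 times the highest value of the other 28 rats for 26 genes, which is 0.152% of all genes, and 4 of the 10 choroid plexus genes were among them, Ttr, Folr1, Slc4a5 and F5. Of the other 22, the 6 named here were chosen after their values were seen. Ak7, Ccdc153, Rsph4a and Dnai3, which belong to the motile cilium, had ratios of 10RT46 to 7AKO19 of 0.672 to 1.12. Sostdc1 and Mfrp, a membrane protein of frizzled type, had ratios of 3.36 and 3.24, beside 2.46 for Folr1, 2.81 for F5, 4.32 for Ttr and 5.91 for Slc4a5. Over all 26 genes the ratio ran from 0.417 to 90.4. Mfrp was 520 in 10RT46 and 160 in 7AKO19 against 54.8 at the highest in the other rats.

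The genes most like the mean of the 10 by Pearson correlation over the 30 rats were Glycam1 (0.904), Pla2g5, Spint2, Sostdc1, Mab21l4, Crocc2, Cltrn, Lmx1a, Gnb3 and Slc39a4, chosen from 14763 genes with a symbol. None of the 10 remained among the 10 most alike without 10RT46 and 7AKO19. Among the 10 most alike by Spearman correlation were Cand2 (0.834), Tspan18, Cfap206, Pttg1ip, RGD1562029, Ctbp2, Ly6g6e, Krt8 and Ss18, and 2 of the 10 remained. These correlations share the libraries and their tissue content and are given as a description. In the order of Pearson correlation with Ttr alone over 17102 genes, Slc4a5 was at rank 3, Folr1 at 5, Enpp2 at 19, Kl at 35, Clic6 at 36, Otx2 at 38 and F5 at 50. Kcnj13 was at 316 and Aqp1 at 5334. Without 10RT46 and 7AKO19 the correlations with Ttr were between -0.056, for F5, and 0.38, for Clic6.

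Sequence upstream of the start site was available for 6 of the 10 genes, Ttr, Slc4a5, Aqp1, Kcnj13, Kl and F5, from RefSeq (GRCr8). The 250 bases before the start are shown for Ttr and Slc4a5, which among the 6 had the largest ratios of 10RT46 to the highest other rat, and for Aqp1, which did not follow them. They lie at chr18:12218508-12218757, chr4:117283044-117283293 and chr4:85812534-85812783, all on the plus strand, and capitals mark the letters TATAAA.
Ttr: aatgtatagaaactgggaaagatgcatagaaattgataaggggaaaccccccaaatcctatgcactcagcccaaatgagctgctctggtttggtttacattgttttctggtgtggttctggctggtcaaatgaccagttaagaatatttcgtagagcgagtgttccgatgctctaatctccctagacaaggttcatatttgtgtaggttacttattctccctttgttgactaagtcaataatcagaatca
Slc4a5: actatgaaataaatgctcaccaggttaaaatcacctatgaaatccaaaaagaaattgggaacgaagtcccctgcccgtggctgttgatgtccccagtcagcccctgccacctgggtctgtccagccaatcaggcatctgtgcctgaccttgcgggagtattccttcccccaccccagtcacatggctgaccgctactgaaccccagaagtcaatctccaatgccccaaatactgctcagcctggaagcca
Aqp1: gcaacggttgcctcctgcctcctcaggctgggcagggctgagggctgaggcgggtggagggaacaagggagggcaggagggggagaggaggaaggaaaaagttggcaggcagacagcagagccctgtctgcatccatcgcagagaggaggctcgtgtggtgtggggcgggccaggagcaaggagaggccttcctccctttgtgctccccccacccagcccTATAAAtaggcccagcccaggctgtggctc

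GC content was 40.4% in the Ttr sequence, 52.8% in that of Slc4a5 and 65.2% in that of Aqp1, against a median of 51.2% over 33469 promoters. The letters TAATCC, the core that Otx factors bind, were searched on both strands and were in 0 of the 6 sequences, and 7.17% of all promoters of this length held them. The letters TATAAA, chosen after the sequences were seen, were on the gene strand of 2 of the 6, Aqp1 and Kcnj13, and of 8.80% of all promoters. In Aqp1 they began 30 bases and in Kcnj13 46 bases before the start.

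In the 27 rats without 10RT43, 10RT46 and 7AKO19, the level of some of the genes followed other choroid plexus genes or markers of other cell types. The relation with the mean of the 48 further choroid plexus genes was closest for Kcnj13 (Pearson r = 0.782, Spearman rho = 0.820, permutation test, p = 1e-05 for each, the smallest that 100000 resamples can give, adjusted p = 0.00024 and 0.0003), with an r of 0.721 without the 2 farthest rats and of 0.820, 0.516 and 0.861 within WT, HIP and AKO rats. For Aqp1 it was close too (r = 0.755, rho = 0.736, permutation test, p = 1e-05 and 5e-05, adjusted p = 0.00024 and 0.0012), with an r of 0.673 without the 2 farthest rats and of 0.925, 0.957 and 0.489 within groups. Folr1 (r = 0.663, rho = 0.710, permutation test, adjusted p = 0.00206 and 0.0012) and Clic6 (r = 0.633, rho = 0.588, permutation test, adjusted p = 0.00425 and 0.0121) also followed these genes, whereas r was 0.229 for Ttr (adjusted p = 0.423 in the permutation test). Only 7 of the 27 rats had more than 3 estimated reads of Folr1 and 10 of Clic6, which limits every relation of these 2 genes. Of 120 relations of the 10 genes with 12 lists, the closest was that of Kcnj13 with leptomeninges genes (Pearson r = 0.814, Spearman rho = 0.852, permutation test, p = 1e-05 for each, adjusted p = 0.00024 and 0.0003). Without the 2 rats farthest out on the leptomeninges mean r was 0.752, and within groups it was 0.836 in WT, 0.798 in HIP and 0.820 in AKO rats. Enpp2 followed oligodendrocyte genes (r = 0.786, rho = 0.789, permutation test, p = 1e-05 for each, adjusted p = 0.00024 and 0.0003). Here r was 0.740 without the 2 farthest rats and 0.818, 0.898 and 0.676 within WT, HIP and AKO rats. Aqp1 also followed leptomeninges genes (r = 0.602, rho = 0.611, permutation test, p = 0.00083 and 0.0009, adjusted p = 0.0083 and 0.0098), with an r of 0.502 without the 2 farthest rats and of 0.791, 0.750 and 0.398 within groups. Folr1 was lower where neocortex genes were higher (r = -0.719, rho = -0.781, permutation test, p = 2e-05 and 1e-05, adjusted p = 0.0004 and 0.0003), with an r of -0.678 without the 2 farthest rats and of -0.925, -0.702 and -0.311 within WT, HIP and AKO rats. Clic6 was higher where cerebellum genes were higher (r = 0.624, rho = 0.687, permutation test, p = 1e-05 and 0.00012, adjusted p = 0.00024 and 0.0018). For Clic6, r was 0.723 without the 2 farthest rats, which include 12RT23, and 0.840, 0.765 and 0.673 within groups. Clic6 and Aqp1 were lower where neocortex genes were higher (r = -0.656 and -0.660, permutation test, adjusted p = 0.00347 for each). Otx2 followed cerebellum genes (r = 0.741, rho = 0.530, permutation test, adjusted p = 0.00877 and 0.0332), with an r of 0.529 without the 2 farthest rats and of 0.107, 0.949 and 0.237 within groups. HIP rat 12RT23 was the highest of the 27 rats for both Otx2 and the cerebellum mean. Otx2 had more than 3 estimated reads in only 4 of the 27 rats and was listed at 0 in 13. Other relations that passed an adjusted p of 0.05, such as that of Clic6 with hippocampus genes (r = 0.642), are not all listed. For Ttr, Kl and F5 no relation with any of the 12 lists had an adjusted p under 0.05. Slc4a5 with cerebellum genes passed by r (-0.618, permutation test, adjusted p = 0.0216) but not by rho (-0.352, adjusted p = 0.222), and r was -0.242 without the 2 farthest rats, so that the relation rests on those rats. The lowest adjusted p of Ttr was that with neocortex genes (r = -0.451, rho = -0.445, permutation test, p = 0.0183 and 0.0216, adjusted p = 0.0957 and 0.104).

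**Figure D4:**
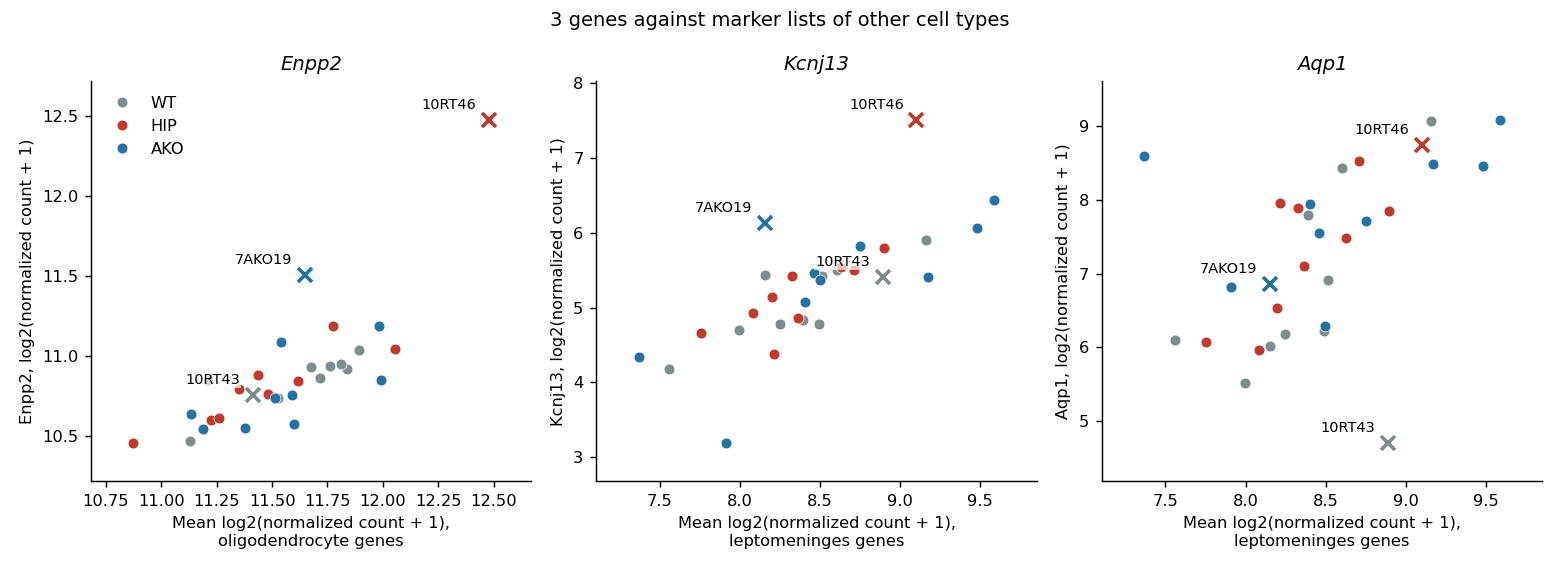
log2(normalized count + 1) of Enpp2, Kcnj13 and Aqp1 against the mean of marker lists of oligodendrocytes or leptomeninges. Points are WT, HIP and AKO rats, and crosses are 10RT43, 10RT46 and 7AKO19, which are not in the correlations. Over the 27 points r is 0.786 for Enpp2, 0.814 for Kcnj13 and 0.602 for Aqp1.

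The comparison of HIP with WT rats asks whether human amylin from the pancreas goes with a change in brain gene expression. None of the 10 genes passed an unadjusted p of 0.05 (limma, two-sided, on log2(normalized count + 1)), against 2.57% of the 17085 genes tested, and none passed an adjusted p of 0.05, as no gene of the table did. The median difference of the 10 genes was 0.46 on the log2 scale (median of all tested genes, 0.0018), and 8 of the 10 were positive. Ttr differed by -0.23 (SE 1.30, limma, p = 0.861, adjusted p = 0.999). Otx2 differed by 1.29 (SE 1.03, limma, p = 0.224) and Aqp1 by 0.72 (SE 0.49, limma, p = 0.158), each with an adjusted p of 0.999. Without 10RT46 alone the difference of Otx2 was 0.47 and that of F5, 0.64 with all rats, was 0.20. The 3 rats 10RT43, 10RT46 and 7AKO19 were left out together because they stood apart in earlier results, also for these genes, so that p-values without them depend on the values tested and are given as a description. The same holds for p-values of fits that leave out a single rat, where that rat is the highest of its group. Without 10RT43, 10RT46 and 7AKO19 the median difference was 0.036, and 5 of the 10 were positive.

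Ttr was the gene whose HIP vs. WT difference turned most on a single rat. Without 10RT46 alone it was -1.52 (limma, p = 0.0111). This fit leaves out the highest Ttr value, so that its p-value is given as a description. Without the 3 rats the range was 0 to 7.75 in HIP and 0.817 to 10.7 in WT rats, and 7 of 9 HIP rats were below the WT median of 3.31. The difference was then -1.25 (SE 0.50, limma, p = 0.0205, adjusted p = 0.962), and 1 of the 10 genes passed the unadjusted threshold, against 4.81% of all genes (2.02% higher and 2.79% lower). In HIP vs. WT rats, Aqp1 passed the unadjusted threshold without 10RT51 (0.98, limma, p = 0.0404). For Ttr, the ranges overlapped. These are counts of a few reads, and HIP rats had a median of 15.7 M estimated reads against 19.1 M in WT rats, whose part in the difference was not tested.

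In AKO vs. WT rats, 1 of the 10 genes, Aqp1, passed the unadjusted threshold, against 9.34% of the 17058 genes tested, and none passed the adjusted threshold, against 0.0997%. Aqp1 differed in the unadjusted test only and was higher in AKO rats by 1.09 on the log2 scale (SE 0.48, limma, p = 0.0332, adjusted p = 0.487), and all 10 AKO rats were above the WT median of 72.3. In a permutation test p was 0.0496. The call was lost when any 1 of 10 rats was left out, 10RT39, 10RT43, 10RT44, 10RT45, 10RT47, 10RT55, 4KAH27, 4KAH35, 6KAH98 and 6KAH99, where the difference was 0.87 to 1.03. Marker lists of other cells and regions had shifted medians too, and none of the genes of the lists given here passed the adjusted threshold. Of 10 cerebellum genes 0 were positive and 0 passed the unadjusted threshold, with a median difference of -0.93 (-0.17 without the 3 rats). Of 12 ependyma genes 9 were positive and 1 passed, with a median of 0.67 (0.30 without the 3 rats). Of 5 blood genes all were positive and 3 passed the unadjusted threshold, with a median difference of 0.65 (0.81 without the 3 rats), and their sum was 3278 to 10038 in WT and 2912 to 41200 in AKO rats. Of 9 leptomeninges genes 6 were positive and 0 passed, with a median of 0.23, and their sum was 11431 to 28209 in WT and 12277 to 43355 in AKO rats. In the 27 rats r of Aqp1 with blood genes was 0.431 (rho = 0.377, permutation test, adjusted p = 0.102 and 0.171), and 0.174 without the 2 farthest rats. The part of these cells in the difference was not tested. With sample-quality weights Aqp1 lost its call (0.77, limma, p = 0.0648). Ttr differed by 1.65 (SE 0.94, limma, p = 0.0916, adjusted p = 0.585) and Folr1 by 1.15 (SE 0.59, limma, p = 0.0658, adjusted p = 0.551), and neither passed the threshold. Without the 3 rats Ttr differed by 1.08 (SE 0.49, limma, p = 0.0406, adjusted p = 0.511) and Aqp1 by 0.97 (SE 0.46, limma, p = 0.0465, adjusted p = 0.534), which are 2 of the 10 genes against 9.15% of all genes, and none passed the adjusted threshold, against 0.0764%. Neither passed the unadjusted threshold in a permutation test (p = 0.0582 for Ttr and 0.0760 for Aqp1). Folr1 passed the unadjusted threshold when any 1 of 5 rats was left out, 10RT50, 10RT51, 10RT57, 4KAH27 and 7AKO30 (limma, p = 0.0208 to 0.0481). Ttr did so without 10RT43 or 7AKO28 (1.93 and 1.99, limma, p = 0.0499 and 0.0450), and Otx2 without 10RT43 (1.18, limma, p = 0.0315). The 10 genes had a median difference of 0.21 with all rats and of 0.18 without the 3 rats (medians of all tested genes, 0.0014 and -0.0090).

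In HIP vs. AKO rats, none of the 10 genes passed the unadjusted threshold, against 12.7% of the 17092 genes tested, and none passed the adjusted threshold, against 0.17%. Ttr differed by -1.88 (SE 1.47, limma, p = 0.213, adjusted p = 0.606), and 9 of 10 HIP rats were below the AKO median of 11.4. Leaving out 10RT46, or the 3 rats, takes out high values of Ttr itself, so that the p-values are given as a description. Without 10RT46 alone, with 7AKO19 kept, the difference was -3.18 (limma, p = 0.00307). Without the 3 rats it was -2.33 (SE 0.55, limma, p = 0.000415, adjusted p = 0.0844). All 9 HIP rats were then below the AKO median of 9.72, and the ranges, 0 to 7.75 in HIP and 1.12 to 35.4 in AKO rats, overlapped. This was 1 of the 10 genes, against 16.1% of all genes (8.2% higher and 7.94% lower in HIP), and it missed the adjusted threshold, which 0.276% passed. Folr1 passed the unadjusted threshold without 10RT46, its highest rat (-1.17, limma, p = 0.0454), which is likewise a description. With sample-quality weights, which give less weight to libraries that fit poorly, 0, 4 and 1 of the 10 genes passed the unadjusted threshold in HIP vs. WT, AKO vs. WT and HIP vs. AKO rats, against 5.18%, 23% and 25.1% of all genes. The 4 were Ttr, Folr1, Clic6 and Otx2, all higher in AKO, and the 1 was Ttr, lower in HIP rats. None passed the adjusted threshold with weights, against 5.02% in AKO vs. WT and 6.69% in HIP vs. AKO rats. Each group takes part in 2 of the 3 comparisons, so that their values are not independent.

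**Figure D5:**
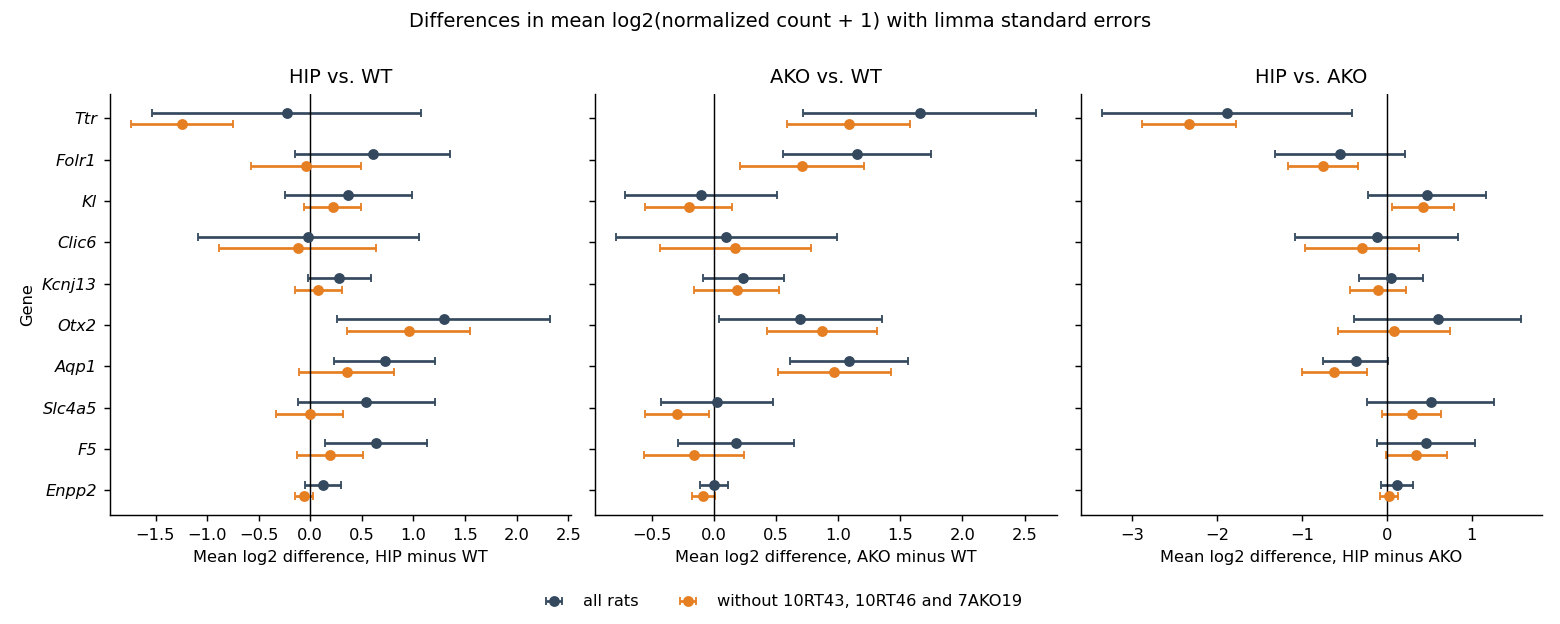
Difference of mean log2(normalized count + 1) for HIP minus WT, AKO minus WT and HIP minus AKO rats, in dark for all rats and in orange without 10RT43, 10RT46 and 7AKO19. Bars are limma standard errors. The error of Ttr shrinks from 1.30 to 0.50 in HIP vs. WT and from 1.47 to 0.55 in HIP vs. AKO once the 3 rats are left out.

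The 48 further choroid plexus genes were compared in the same way. In HIP vs. WT rats 0 of 48 passed the unadjusted threshold (limma), against 1.11% higher and 1.46% lower of all genes. Without the 3 rats 0 of 47 tested were higher and 1, Steap1, was lower, against 2.02% and 2.79% of all genes. In AKO vs. WT rats 7 were higher and 4 lower, against 5.23% and 4.12% of all genes, and none passed the adjusted threshold. The 7 were Msx1, Calml4, Col8a2, Cst3, Cp, Krt8 and Trpv4, and the 4 were Car2, Atp1b1, Slc5a5 and Meis1. Calml4, a calmodulin-like protein of epithelia, had the largest difference, 1.35 on the log2 scale (SE 0.50, limma, p = 0.0139, adjusted p = 0.396). Msx1 was higher by 0.56 (SE 0.18, limma, p = 0.00462, adjusted p = 0.306) and Atp1b1, a subunit of the sodium pump that neurons express, differed by -0.18 (SE 0.080, limma, p = 0.0349, adjusted p = 0.492). Without the 3 rats 9 of 47 tested were higher and 3 lower, against 5.06% and 4.10% of all genes. In HIP vs. AKO rats 2 were higher and 3 lower, against 5.85% and 6.90% of all genes, and the strongest were Cst3, cystatin C, at -0.35 (SE 0.10, limma, p = 0.00236, adjusted p = 0.176) and Slc5a5, the iodide transporter, at 0.98 (SE 0.30, limma, p = 0.00355, adjusted p = 0.198). Without the 3 rats 3 of 47 were higher and 5 lower, against 8.2% and 7.94% of all genes.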

How the data were processed

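RNA-seq libraries of 30 rats (n = 10 males/group) were made with a SMARTer kit and sequenced on a HiSeq 2500. Alignment to rn7 and counting on Ensembl 105 genes were done by the authors with Partek Flow 10.0.22.0228, and the submitters' processing notes also name Bowtie2 and STAR 2.7.8a. The authors scaled the counts with DESeq2 and deposited the result, a signal on a count scale that is not whole. In each rat 80.3% to 84.0% of values below 100 were whole multiples (tolerance 0.01) of a step taken as 1 read, so no count test was run. A low gene is known to about 1 read, and 3 reads were taken as the limit of detection. Rats were grouped, and columns matched to them, by their labels. Whether counting used strand is not given in the sources used here.

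Groups were compared by limma 3.58.1 (R 4.3.3, lmFit and eBayes with trend) on log2(normalized count + 1), keeping genes whose mean over the compared rats reached 1, with Benjamini-Hochberg adjustment over all genes tested. Permutation tests used 100000 resamples (Python 3.11.15, scipy 1.17.1). The 10 genes and the marker lists were chosen with earlier results of these data known. All 10 genes are described. From the other lists, counts are given, and by name genes with an unadjusted p under 0.05 or that define a tissue. Genes above the other rats and the 22 genes high in both rats were named after their values were seen. Alternatives changed the pseudocount to 0.1 or 5, dropped the filter or raised it to 10, fitted all 30 rats at once, made eBayes robust, weighted rats by sample quality, normalized by quantiles, took library number as a covariate, permuted the rats, left out each rat, and left out 10RT43, 10RT46 and 7AKO19 together. The fit that also left out 12RT23 was added after the data were seen. List genes found neither by symbol nor by a RefSeq synonym or Ensembl identifier are not analysed here. Of the genes most like the 10 by rank correlation, 1 is not reported here.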

Additional observations from a re-analysis of the deposited data

Results flagged for a closer look

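In 14 of 30 groups of 10 rats (10 genes in WT, HIP and AKO rats), the highest or lowest rat lay apart from its group, with a gap to the nearest rat that was over Dixon's 95% critical value for 10 samples as a share of the group's range on the log2(normalized count + 1) scale. Were the groups independent and the values normally distributed, chance would flag about 1 in 20 groups, or 1.5 of 30. The 30 groups are not independent, because the 10 genes share the same rats and were chosen with earlier results known. Ttr, Folr1, Clic6 and Otx2 were also at a few reads in most rats. The 14 flagged groups are thus given as a description, and whether they exceed chance was not tested. HIP rat 10RT46 accounted for 7 of the 14 groups, with normalized counts of 14881 for Ttr, 186 for Folr1, 212 for Kl, 181 for Kcnj13, 685 for Slc4a5, 269 for F5 and 5697 for Enpp2. AKO rat 7AKO19 accounted for 4, with 3445 for Ttr, 75.6 for Folr1, 111 for Kl and 116 for Slc4a5. WT rat 10RT43 accounted for 2, with 62.2 for Kl and 35.9 for Otx2. WT rat 10RT50 was apart for Enpp2, as the lowest with 1414, and it also had the lowest mean of the WT rats over oligodendrocyte genes, at 11.1 on the log2 scale.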

How the results depend on the processing

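The number of the 10 genes past an unadjusted p of 0.05 in HIP vs. WT rats was 0 (2.57% of all genes). It was 1 without 10RT43, 10RT46 and 7AKO19 (4.81% of all genes) and 1 without these and 12RT23. In AKO vs. WT rats it was 1 (9.34% of all genes), and it was 2 with a pseudocount of 0.1 and 2 without the 4 rats. It was 4 with sample-quality weights (23% of all genes), where Aqp1 was no longer among them, and 2 without the 3 rats (9.15% of all genes). In HIP vs. AKO rats it was 0 (12.7% of all genes). It was 1 with sample-quality weights (25.1% of all genes), 1 without the 3 rats (16.1% of all genes) and 1 without the 4 rats. With each rat left out in turn the numbers were 0 to 1, 0 to 2 and 0 to 2, and none of the 10 genes passed an adjusted p of 0.05 under any setting. Shares of all genes are not given here for the pseudocount of 0.1, without the 4 rats or with each rat left out. The numbers under those settings thus cannot be set against all genes.

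Differences that changed sign were those of genes that passed no threshold with all rats. With a pseudocount of 5 they were 0.43 for Ttr and 0.086 for Clic6 in HIP vs. WT, 0.013 for Kl and -0.078 for Clic6 in AKO vs. WT and 0.16 for Clic6 in HIP vs. AKO. With a pseudocount of 0.1, Slc4a5 was at -0.013 in AKO vs. WT. With sample-quality weights they were 0.50 for Clic6 and -0.035 for Enpp2 in HIP vs. WT, 0.53 for Kl and 0.046 for Enpp2 in AKO vs. WT, and -0.25 for Kl, -0.27 for Kcnj13, -0.14 for Otx2, -0.27 for Slc4a5 and -0.082 for Enpp2 in HIP vs. AKO. With library number as a covariate they were 0.39 for Clic6 in HIP vs. WT and -0.051 for Slc4a5 in AKO vs. WT. With quantile normalization they were -0.0085 for Clic6, -0.12 for Slc4a5 and 0.0060 for Enpp2 in AKO vs. WT. Without the 3 rats they were -0.042 for Folr1, -0.0063 for Slc4a5 and -0.058 for Enpp2 in HIP vs. WT, -0.30 for Slc4a5 and -0.16 for F5 in AKO vs. WT and -0.10 for Kcnj13 in HIP vs. AKO. Without the 4 rats they were -0.014 for Folr1, -0.0037 for Kcnj13 and -0.015 for Enpp2 in HIP vs. WT, -0.30 for Slc4a5 and -0.16 for F5 in AKO vs. WT, and -0.18 for Kcnj13 and -0.42 for Otx2 in HIP vs. AKO. The cause was not tested.

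With each rat left out in turn, HIP vs. WT differences ranged from -1.52 to 0.047 for Ttr, -0.018 to 0.88 for Folr1, -0.13 to 0.72 for Kl, -0.69 to 0.55 for Clic6, 0.47 to 1.78 for Otx2, 0.20 to 0.77 for F5, -0.096 to 0.83 for Slc4a5 and -0.048 to 0.18 for Enpp2. Those of AKO vs. WT ranged from 0.80 to 1.99 for Ttr, 0.87 to 1.35 for Aqp1, -0.56 to 0.25 for Kl, -0.40 to 0.67 for Clic6, -0.39 to 0.16 for Slc4a5, -0.14 to 0.39 for F5 and -0.075 to 0.032 for Enpp2. Those of HIP vs. AKO ranged from -3.18 to -1.04 for Ttr, -0.032 to 0.93 for Kl, -0.79 to 0.38 for Clic6, -0.19 to 0.17 for Kcnj13, -0.22 to 0.91 for Otx2, -0.12 to 0.93 for Slc4a5 and -0.046 to 0.20 for Enpp2. Without the 4 rats Otx2 fell under the filter on low values in HIP vs. WT and has no value. No paired analysis was possible because the labels give no replicate numbers that are shared by the groups. Ttr, Folr1, Clic6 and Otx2 were at a few reads in most rats, so that small differences between groups were not detectable at this depth.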
